A study of Mus musculus with 25 samples.

Results

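Lrg1, Hp, Saa1, Saa2 and Saa3 encode secreted proteins of the acute phase response and were described here over all 25 arrays of a study of surgical loops of mouse ileum. They are 5 of the 17899 genes named on the array, read by 7 probes, 3 of them for Hp, and all 5 were among the 11227 genes that passed the detection filter. They were chosen by the measured difference between self-filling and self-emptying loops on these arrays, so that difference, and any other that uses the self-filling arrays, is given as values with no test.

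In a self-filling loop intestinal content stands, whereas a self-emptying loop drains, and the difference between them within a genotype is called the stasis difference. All animals were female C57Bl/6 mice aged 6 to 8 weeks. In the loop groups 2.5 cm of ileum lying 3 cm from the ileocecal valve had been resected and joined again, and tissue was taken 5 weeks later. Mice lacking TLR4, which senses lipopolysaccharide of bacteria, gave 3 self-filling and 3 self-emptying loops. Mice labelled as IL10 knockouts, which lack a cytokine that restrains inflammation, gave 3 of each. Wild type mice gave 3 self-filling loops, 4 self-emptying loops, 3 samples of sham-operated cecum and 3 of sham-operated ileum. The labels describe neither allele further. The series title names stasis and genetic susceptibility as its subjects, and the design text says that TLR4 knockouts were used to ask whether TLR4 mediates part of the loop's inflammatory response. Since no label ties a replicate to its own animal, the p-values cover the spread among these samples alone, part of which may be technical.

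Each array detected 12123 to 13627 of its 25697 probes, with median bead numbers of 33 to 39, and precision is limited by how many arrays there were. Arrays of the same group correlated with r from 0.968 to 0.992. The tissue labels fit their markers: summed ileal markers lay between 79111 and 150144 intensity units in loops and sham ileum, against 904 to 1722 in sham cecum. Of the 2 Tlr4 probes, 1 was detected on no array; the other averaged 4.40 and 4.60 log2 units in TLR4 knockout self-filling and self-emptying loops (1 of 6 arrays detected), against 5.40 and 5.21 in the wild type loops (7 of 7). On each of the 6 IL10 knockout arrays the Il10 probe gave a detected level, at 7.34 ± 0.10 and 6.65 ± 1.01 (SD, n = 3) in self-filling and self-emptying loops, and it was detected on no wild type array, where group means lay between 4.37 and 4.56. Its place relative to the deletion is unknown, so it does not check the label, and IL10 knockout below means arrays so labelled. Levels are normalized log2 intensities, and no level is set against that of another probe. All TLR4 knockout arrays carry array codes of a series of their own, so that series and this genotype cannot be told apart in any comparison with wild type. The other arrays were split for this work into 3 runs of 8 successive array codes, a grouping that no label gives. Each run held both sham tissues, both IL10 knockout loop types and wild type self-emptying loops, but the run of codes 9 to 16 held no wild type self-filling loop. Markers of fat varied between arrays of the same group, with 5 arrays above 10000 intensity units, and Hp and Saa3 are given beside them below. These are whole tissue samples, in which fewer cells of a type and less RNA per cell cannot be told apart.

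Acute phase proteins are released in large amounts during infection or injury, classically by the liver under the cytokines IL-6 and IL-1, which act through STAT3, C/EBP and NF-kB transcription factors, and several are also made by intestinal epithelium, fat and myeloid cells. Lrg1, leucine-rich alpha-2 glycoprotein, modulates TGF-beta signalling in blood vessels and is used as a serum marker of inflammatory bowel disease. Hp, haptoglobin, binds free haemoglobin and is made in liver and fat and stored in neutrophil granules. Serum amyloid A proteins bind lipid and retinol. In mice, Saa1 and Saa2 are made in liver and in epithelium of the large intestine, and Saa3 in macrophages, fat and epithelium. Of 12 listed hepatocyte markers, Alb, Ahsg, Fga, Fgb, Apoh and Tat were detected in none of the 8 groups. The others were not silent: 4 to 6 of the 12 were detected on some array of each group. Serpina1b and Ttr were among them in every group, and the marker sum was 870 to 4285 intensity units.

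The 3 Saa genes lie close together on chromosome 7, where the reference annotation orders them as Saa3, Saa4, a Saa pseudogene, Saa1 and Saa2, while Lrg1 is on chromosome 17 and Hp on chromosome 8. The promoter windows of 4 of the 5 genes are shown because the Saa genes, as neighbours, split into different patterns in the values that follow. They run from 250 bases before the gene start to 50 after it, 5′ to 3′ on the strand of the gene, as given by RefSeq for GRCm38.p6. The windows are chr17:56121897-56122196 (minus strand) for Lrg1, chr7:46742931-46743230 (minus strand) for Saa1, chr7:46751583-46751882 (plus strand) for Saa2 and chr7:46715627-46715926 (minus strand) for Saa3. Capitals mark matches on either strand to a C/EBP motif TTGCNNAA or an NF-kB motif, which is GGG and CC with 5 bases of any kind between them.
Lrg1 promoter: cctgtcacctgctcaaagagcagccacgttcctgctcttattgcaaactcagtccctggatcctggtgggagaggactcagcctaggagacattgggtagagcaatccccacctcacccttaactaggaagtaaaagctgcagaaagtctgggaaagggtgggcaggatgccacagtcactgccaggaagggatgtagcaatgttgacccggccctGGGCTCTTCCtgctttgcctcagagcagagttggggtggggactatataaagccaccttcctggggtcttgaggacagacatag
Saa1 promoter: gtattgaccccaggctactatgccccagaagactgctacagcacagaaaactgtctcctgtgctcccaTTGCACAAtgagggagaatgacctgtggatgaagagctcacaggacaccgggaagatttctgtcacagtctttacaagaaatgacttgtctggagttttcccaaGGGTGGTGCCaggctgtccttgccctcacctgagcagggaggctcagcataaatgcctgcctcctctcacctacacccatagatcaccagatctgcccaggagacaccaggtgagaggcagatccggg
Saa2 promoter: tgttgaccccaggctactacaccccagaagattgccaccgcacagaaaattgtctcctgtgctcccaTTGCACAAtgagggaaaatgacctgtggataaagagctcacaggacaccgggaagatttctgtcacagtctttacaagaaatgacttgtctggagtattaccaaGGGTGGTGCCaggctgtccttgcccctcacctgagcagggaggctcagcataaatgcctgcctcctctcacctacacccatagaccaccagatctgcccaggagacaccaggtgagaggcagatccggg
Saa3 promoter: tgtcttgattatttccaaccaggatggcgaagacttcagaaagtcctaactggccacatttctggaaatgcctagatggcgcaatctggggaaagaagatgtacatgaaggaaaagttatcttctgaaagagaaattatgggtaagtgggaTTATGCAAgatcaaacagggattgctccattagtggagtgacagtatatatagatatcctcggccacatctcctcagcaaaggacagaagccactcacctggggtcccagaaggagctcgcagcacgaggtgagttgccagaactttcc

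The Saa1 and Saa2 windows were 96.0% identical, with 287 of 299 aligned bases in common. Each of the Saa1, Saa2 and Saa3 windows held a C/EBP match, as did 10.8% of the 32851 mouse promoters of the same length in the table. In Saa1 and Saa2 it reads TTGCACAA and starts at -182 and -183 from the gene start, and in Saa3 the printed letters TTATGCAA match on the opposite strand. The Lrg1, Saa1 and Saa2 windows each held an NF-kB match, a motif present in 50.8% of promoters. A STAT motif, TTCNNNGAA, was in none of the 4 windows and in 8.3% of promoters, which says only that these letters are not in these windows. No match overlapped another. A match is a description of the sequence, not of a site in use.

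Lrg1 was high in every self-filling group. Its probe (ILMN_2652500, detected on 25 of 25 arrays) read 8.27, 9.58 and 9.82 in TLR4 knockout self-filling loops, against 6.77, 7.01 and 6.86 in TLR4 knockout self-emptying loops. In IL10 knockout it read 12.56, 13.06 and 12.96 in self-filling loops, against 10.81, 10.57 and 11.54 in self-emptying loops. In wild type it read 9.36, 8.82 and 10.35 in self-filling loops, against 7.28, 6.70, 6.84 and 6.05 in self-emptying loops. Every self-filling array thus lay above every self-emptying array of its own genotype. Sham cecum read 6.36, 7.90 and 6.25, and sham ileum 6.17, 6.36 and 5.97. Before normalization the probe gave 7966.1, 7753.3 and 9087.5 intensity units in IL10 knockout self-filling loops, against 1222.2, 1950.4 and 3255.5 in IL10 knockout self-emptying loops.

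The stasis difference of Lrg1 was 2.34 ± 0.44 log2 units (SE) in TLR4 knockout, 1.89 ± 0.44 in IL10 knockout and 2.79 ± 0.41 in wild type, so wild type had the largest of the 3 point values while IL10 knockout had the highest level. By group mean, IL10 knockout self-filling loops (12.86 ± 0.27, SD, n = 3) led, then IL10 knockout self-emptying loops (10.97 ± 0.51), then wild type self-filling loops (9.51 ± 0.78) and TLR4 knockout self-filling loops (9.22 ± 0.83). Arrays did not overlap at the first 2 steps of this order, and did between wild type and TLR4 knockout self-filling loops. A step of 2.34 without overlap led to the other 4 groups. The self-emptying loops of TLR4 knockout (6.88 ± 0.12), the sham cecum (6.84 ± 0.92), the self-emptying loops of wild type (6.72 ± 0.51) and the sham ileum (6.17 ± 0.20) followed, each overlapping the next. Within runs of array codes the wild type difference was 1.81 and 4.30, and the IL10 knockout difference 1.01, 2.25 and 2.40, each above 0.

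**Figure D1:**
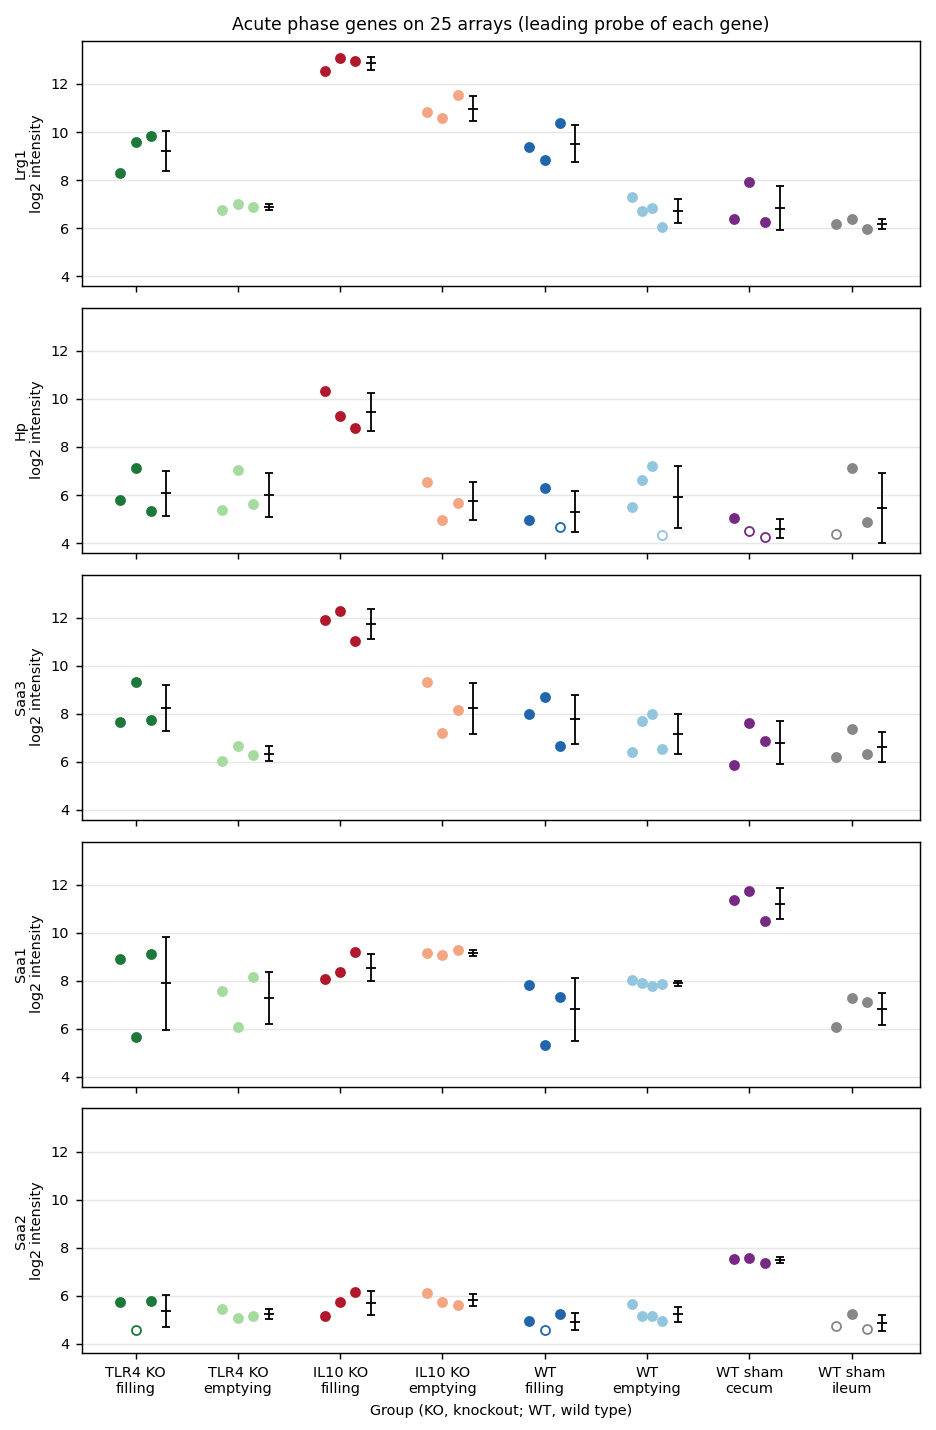
Normalized log2 intensity (vertical axis) of the leading probe of Lrg1, Hp, Saa3, Saa1 and Saa2 (panels from the top) on each of 25 arrays in 8 groups (horizontal axis). Filled points were detected at p under 0.05 and open points were not; the black bar beside each group is its mean with SD. Lrg1 stands above 8 on all 9 self-filling arrays and on the 3 IL10 knockout self-emptying arrays, Hp above 8 on the 3 IL10 knockout self-filling arrays only, and Saa1 and Saa2 peak in sham cecum.

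The baseline of Lrg1 in drained loops differed by genotype. This comparison uses the self-emptying arrays, which are also the reference of the stasis differences, and it was tested in the fit of all 11227 genes. Lrg1 was 4.26 ± 0.41 log2 units (19.1-fold) higher in IL10 knockout than in wild type self-emptying loops (limma, adjusted p = 7.36e-06), with every IL10 knockout array above every wild type array. It was the only 1 of the 5 genes to pass there, where 9.55% of all genes passed and 5.24% rose. The direction rests on the IL10 knockout label. The difference was 4.26, 4.04 and 4.52 within the 3 runs of array codes, and 3.33 to 4.57 over 13 other ways of processing the arrays. In self-filling loops the level was also higher in IL10 knockout, by 3.35 ± 0.44 log2 units, and not in TLR4 knockout, where the difference from wild type was -0.29 ± 0.44. TLR4 knockout and wild type self-emptying loops differed by 0.16 ± 0.41 (adjusted p = 0.877).

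Hp was high in a single group. Its leading probe (ILMN_2944824, detected on 20 of 25 arrays) read 10.34, 9.29 and 8.79 in IL10 knockout self-filling loops, against 6.55, 4.97 and 5.68 in IL10 knockout self-emptying loops. In TLR4 knockout it read 5.78, 7.12 and 5.32 in self-filling loops, against 5.36, 7.06 and 5.61 in self-emptying loops. In wild type it read 4.98, 6.28 and 4.67 in self-filling loops, against 5.50, 6.62, 7.22 and 4.32 in self-emptying loops. The 3 IL10 knockout self-filling arrays lay above all other 22 arrays, and the arrays of every other neighbouring pair of groups overlapped. Sham cecum read 5.03, 4.50 and 4.26 with detection on 1 of 3 arrays, and sham ileum 4.38, 7.12 and 4.87 with detection on 2 of 3.

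The stasis difference of Hp was 0.07 ± 0.74 log2 units (SE) in TLR4 knockout, 3.74 ± 0.74 in IL10 knockout and -0.60 ± 0.69 in wild type. The 3 Hp probes read alike, with correlations of at least 0.976 over 25 arrays, and put the IL10 knockout difference between 3.32 and 3.74. Within runs of array codes it was 4.66, 2.74 and 3.82. In drained loops the difference of Hp between IL10 knockout and wild type did not pass (-0.18 ± 0.69, adjusted p = 0.916), and it turned to 0.83 without the 5 arrays highest in fat markers, still short of the threshold (adjusted p = 0.498). In self-filling loops Hp was 4.16 ± 0.74 higher in IL10 knockout than in wild type, and 0.77 ± 0.74 higher in TLR4 knockout.

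Some, but not all, high single arrays of Hp outside IL10 knockout were also high in markers of fat. The array with the highest Hp among TLR4 knockout self-emptying loops (7.06) had 15960 intensity units summed over 9 adipocyte markers, that of wild type self-emptying loops (7.22) had 18285, and that of sham ileum (7.12) had 15388. The sham cecum array with the highest Hp of its group, at 5.03, had 13967. The TLR4 knockout self-filling array with Hp at 7.12 had 708 units, and the wild type self-filling array highest in Hp (6.28) had 463, the lowest sum of its group. Of these markers, Fabp4 and Retn were detected in no group. The 3 IL10 knockout self-filling arrays, with the highest Hp of all, had 479, 1489 and 519 units. Without the 5 arrays over 10000 units, a setting chosen after seeing the data, the wild type stasis difference of Hp was 0.40 ± 0.59 and the TLR4 knockout difference 0.59 ± 0.59. Within runs of array codes the wild type difference was 0.13 and 0.36. The sign of the wild type value therefore depends on which arrays are kept. The part of fat in any of these Hp values was not tested.

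By sum, neutrophil markers were highest on the 3 arrays with the highest Hp. Their sum over 12 markers was 15544, 16768 and 4773 intensity units in IL10 knockout self-filling loops, against 3855, 946 and 947 in IL10 knockout self-emptying loops. In the other 6 groups it lay between 286 and 1515, and the 1515 belonged to the TLR4 knockout self-filling array with the highest Hp of its group (7.12). A sum weighs the brightest markers most. By mean log2 level over the same markers, IL10 knockout self-emptying replicate 1 (6.27) lay above IL10 knockout self-filling replicate 3 (6.21). The neutrophil genes Mpo, Cxcr2 and Mmp8 were detected in none of the 8 groups. Elane was detected among IL10 knockout self-emptying loops but in no IL10 knockout self-filling loop. The macrophage sum was 4378 to 5286 in IL10 knockout self-filling loops, against 1113 to 2889 in IL10 knockout self-emptying loops. It reached similar values on some arrays of groups with lower Hp and Saa3, with 1074 to 4119 in wild type self-emptying loops, 3377 to 4257 in sham cecum and 1994 to 4942 in sham ileum. The part of these cells in the Hp and Saa3 levels was not tested.

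**Figure D2:**
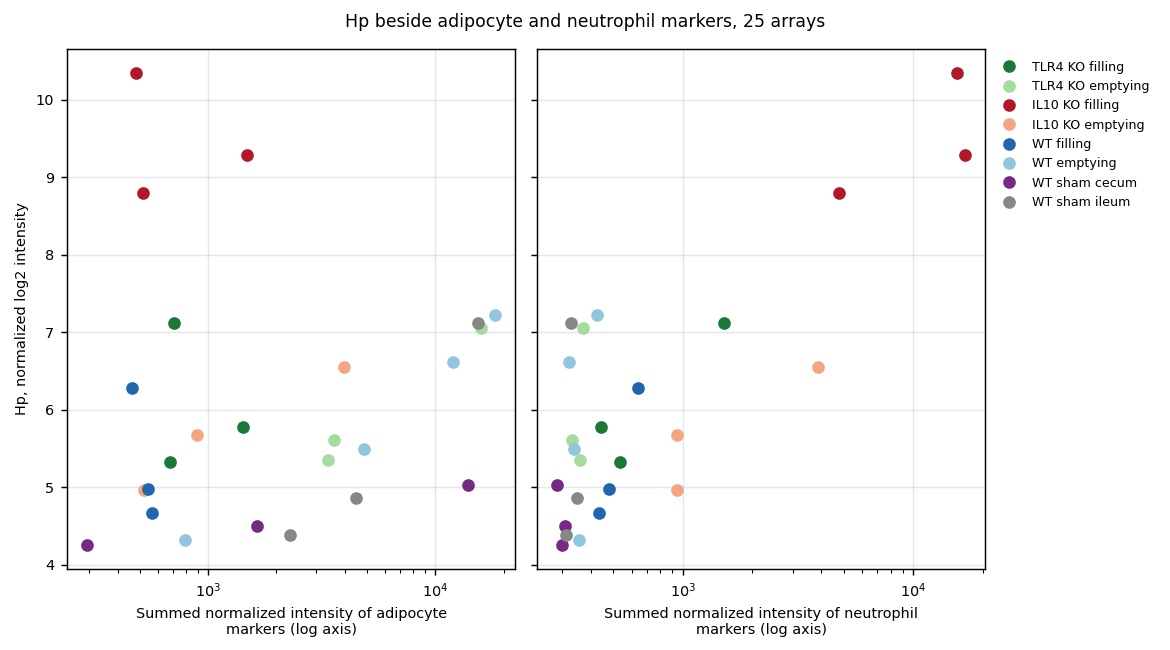
Normalized log2 intensity of Hp (vertical axis) against the summed normalized intensity of 9 adipocyte markers (left) and 12 neutrophil markers (right) on log axes, with 1 point per array for 25 arrays coloured by group. Of the 5 arrays with over 10000 units of adipocyte signal at the right of the left panel, 4 have Hp between 6.62 and 7.22 and 1, a sham cecum, has 5.03; the 3 IL10 knockout self-filling arrays stand at the top, with low adipocyte and high neutrophil signal.

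Saa3 followed a pattern between those of Lrg1 and Hp. Its probe (ILMN_2772632, detected on 25 of 25 arrays) read 7.65, 9.35 and 7.74 in TLR4 knockout self-filling loops, against 6.05, 6.67 and 6.29 in TLR4 knockout self-emptying loops. In IL10 knockout it read 11.89, 12.27 and 11.04 in self-filling loops, against 9.35, 7.21 and 8.14 in self-emptying loops. In wild type it read 7.99, 8.69 and 6.67 in self-filling loops, against 6.40, 7.70, 8.01 and 6.52 in self-emptying loops. The loop types did not overlap in both knockouts and did overlap in wild type. Sham cecum read 5.86, 7.64 and 6.89, and sham ileum 6.21, 7.35 and 6.34.

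The stasis difference of Saa3 was 1.91 ± 0.61 log2 units (SE) in TLR4 knockout, 3.50 ± 0.61 in IL10 knockout and 0.62 ± 0.57 in wild type. The wild type value depended on single arrays: it was 0.17 without self-filling replicate 2, and 1.32 without the arrays highest in fat markers, which in wild type loops are self-emptying replicates 2 and 3, the highest in Saa3 of their group. By run of array codes it was 1.94 and 0.15, against 3.75, 2.92 and 3.83 in IL10 knockout. In TLR4 knockout, leaving out single arrays gave 1.36 to 2.21. Only the lead of IL10 knockout self-filling loops (11.73 ± 0.63, SD, n = 3) over the next group, TLR4 knockout self-filling loops (8.24 ± 0.96), was free of overlap in the order of the 8 groups. In self-emptying loops, Saa3 did not pass in IL10 knockout against wild type (1.08 ± 0.57, adjusted p = 0.263) or in TLR4 knockout against wild type (-0.82 ± 0.57, adjusted p = 0.45).

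Saa1 and Saa2 were highest in the cecum. The Saa1 probe (ILMN_2826869, detected on 25 of 25 arrays) read 11.38, 11.74 and 10.50 in sham cecum, against 6.06, 7.30 and 7.13 in sham ileum. The Saa2 probe (ILMN_2758571, detected on 21 of 25 arrays) read 7.55, 7.57 and 7.35 in sham cecum, against 4.75, 5.25 and 4.63 in sham ileum, where 1 of 3 arrays detected it. The 3 cecum arrays lay above all other 22 arrays for both genes. Saa1 rose by 4.38 ± 0.71 log2 units (20.8-fold, limma adjusted p = 6.3e-05) and Saa2 by 2.61 ± 0.29 (6.11-fold, adjusted p = 3.19e-07) in cecum against ileum. These were 2 of the 5 genes, where 27.8% of all genes passed and 16.2% rose, and Lrg1 (0.67 ± 0.44, adjusted p = 0.292), Hp (-0.86 ± 0.74, adjusted p = 0.444) and Saa3 (0.16 ± 0.61, adjusted p = 0.888) did not. Within runs of array codes the difference was 5.32, 4.44 and 3.37 for Saa1 and 2.79, 2.32 and 2.72 for Saa2.

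Self-filling loops did not reach the cecal level of Saa1 or Saa2. Saa1 read 8.92, 5.65 and 9.11 in TLR4 knockout self-filling loops, against 7.59, 6.09 and 8.18 in TLR4 knockout self-emptying loops. In IL10 knockout it read 8.08, 8.38 and 9.18 in self-filling loops, against 9.15, 9.06 and 9.27 in self-emptying loops. In wild type it read 7.81, 5.32 and 7.32 in self-filling loops, against 8.02, 7.89, 7.77 and 7.87 in self-emptying loops. The loop types overlapped in the knockouts, and in wild type 2 of 3 self-filling arrays lay below all self-emptying arrays. The stasis difference was 0.61 ± 0.71 log2 units (SE) in TLR4 knockout, -0.61 ± 0.71 in IL10 knockout and -1.07 ± 0.67 in wild type. Against sham cecum, wild type self-filling loops were 4.39 ± 0.71 log2 units lower in Saa1 and 2.57 ± 0.29 lower in Saa2.

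Saa2 varied little between loops. It read 5.72, 4.59 and 5.80 in TLR4 knockout self-filling loops, against 5.46, 5.08 and 5.17 in TLR4 knockout self-emptying loops. In IL10 knockout it read 5.15, 5.75 and 6.15 in self-filling loops, against 6.12, 5.74 and 5.62 in self-emptying loops. In wild type it read 4.97, 4.56 and 5.24 in self-filling loops, against 5.65, 5.15, 5.14 and 4.96 in self-emptying loops. All 3 pairs of loop types overlapped, with stasis differences of 0.13 ± 0.29, -0.14 ± 0.29 and -0.30 ± 0.27 in TLR4 knockout, IL10 knockout and wild type. Replicate 2 of the TLR4 knockout and of the wild type self-filling loops was the lowest of its group in Saa1 and Saa2 and the highest in Saa3 and Hp. Without its replicate 2 the TLR4 knockout difference was 1.73 for Saa1 and 0.52 for Saa2, and the wild type difference -0.32 and -0.12.

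In drained loops Saa1 lay above wild type on all 3 IL10 knockout arrays (1.27 ± 0.67 log2 units, adjusted p = 0.255), and the run values were 1.25, 1.32 and 1.19. The call depends on the fit. With only these 2 groups in the model, whose Saa1 arrays vary little, the same difference passed (± 0.12, adjusted p = 0.00261). Saa2 differed by 0.60 ± 0.27 (adjusted p = 0.171). In TLR4 knockout neither Saa1 (-0.60 ± 0.67, adjusted p = 0.669) nor Saa2 (0.01 ± 0.27, adjusted p = 0.99) passed, where 5.64% of all genes did. None of the 5 genes passed in wild type self-emptying loops against sham ileum, where 0.00891% of genes passed. The values there were 0.55 ± 0.41 for Lrg1, 0.45 ± 0.69 for Hp, 1.06 ± 0.67 for Saa1, 0.35 ± 0.27 for Saa2 and 0.52 ± 0.57 for Saa3, with adjusted p from 0.759 to 0.945. For Saa1 all 4 self-emptying arrays lay above all 3 ileum arrays.

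The Saa1 and Saa2 levels moved together, with a Pearson correlation of 0.919 over 25 arrays that share the same runs and processing. Probe sequences were not used here, so whether either probe also reads the other gene was not tested. The Saa1 probe was also the least precise of the 7, with 8 to 33 beads per array and a bead standard error of up to 10.98% of the signal. The probe of Saa4, a serum amyloid A expressed without induction, was detected on 0 of 25 arrays.

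**Figure D3:**
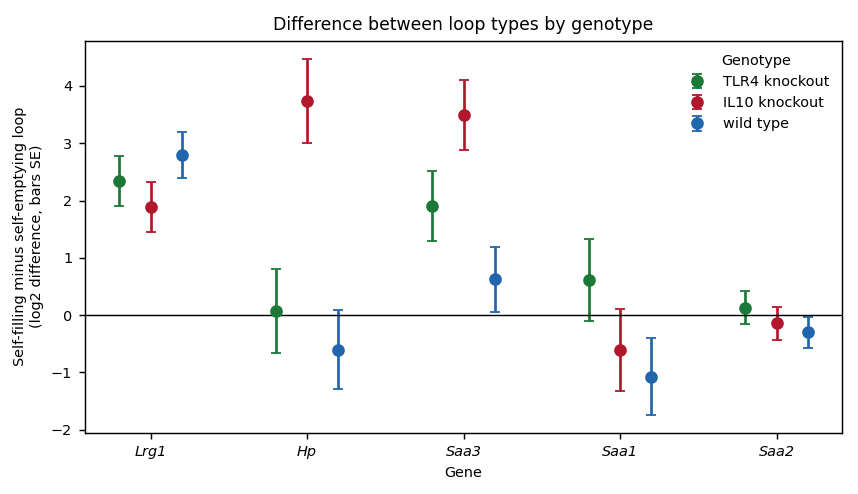
Stasis difference (self-filling minus self-emptying loop, log2 units, vertical axis; bars SE of the fit) of Lrg1, Hp, Saa3, Saa1 and Saa2 (horizontal axis) in TLR4 knockout, IL10 knockout and wild type. Lrg1 stands between 1.89 and 2.79 in all 3 genotypes. In IL10 knockout, TLR4 knockout and wild type, Hp stands at 3.74, 0.07 and -0.60, and Saa3 at 3.50, 1.91 and 0.62. Saa1 and Saa2 stand within about 1 unit of 0.

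Set side by side, only Lrg1 of the 5 genes had every self-filling array above every self-emptying array in all 3 genotypes, as did 0.517% of the genes tested. It was also the only member at least 1 log2 unit higher in all 3, as were 0.116% of genes. Non-overlapping arrays were found for 2 of 5 members in TLR4 knockout (6.88% of all genes), 3 of 5 in IL10 knockout (9.53%) and 1 of 5 in wild type (13.9%). A stasis difference of at least 1 log2 unit was found in 2, 3 and 1 members of these genotypes (0.615, 1.47 and 1.26% of all genes). Since the members were chosen for these contrasts, nothing is read from the counts. Of the 15 differences, 6 were at least 1 log2 unit higher, and other ways of processing gave 6 or 7. The difference between genotypes in the stasis difference, given without a test, was 4.34 ± 1.01 for Hp, 2.87 ± 0.84 for Saa3 and -0.91 ± 0.60 for Lrg1 in IL10 knockout minus wild type. In TLR4 knockout minus wild type it was 0.67 ± 1.01 for Hp, 1.28 ± 0.84 for Saa3 and -0.45 ± 0.60 for Lrg1.

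The genes whose levels were most like those of each member over 25 arrays differed between members, given as Pearson correlations and as a description only. For Lrg1 they were the metalloreductase Steap2 (0.931), the necroptosis effector Mlkl (0.922), the lysosomal enzyme Gusb (0.921), Urah (0.916) and the surface protein Ly6d (0.908). For Hp they were the myeloid receptor Sirpb1a (0.864), the phospholipase Pla1a (0.862), the lectin Clec4d (0.859), the chemokine Cxcl10 (0.856) and the Fc receptor Fcgr3 (0.856). Saa3 was most like the calprotectin subunits S100a8 (0.928) and S100a9 (0.912), the siderophore-binding Lcn2 (0.922), the formyl peptide receptor Fpr2 (0.904) and Chil3 (0.903). After each other, Saa1 was most like Tmem50b (0.825) and Slc36a1 (0.807), and Saa2 most like Slc36a1 (0.905) and Vsig8 (0.871), Slc36a1 being an amino acid transporter. Among members, Saa3 correlated with Hp at 0.846 and with Lrg1 at 0.824, Lrg1 with Hp at 0.593, and Saa3 with Saa1 at -0.004. All these arrays share 4 runs and 8 groups, so the values mostly restate the group pattern.

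The rest of the pathway was read in 4 lists of 104 symbols, of which 78 were tested: other acute phase proteins (27 of 38), inducing cytokines (9 of 15), their receptors and signalling (27 of 29), and receptors and partners of the proteins themselves (15 of 22). These genes were listed by their known roles, but with earlier results of these data known, and were tested in the fit of all genes with limma. Their counts and p-values are therefore not independent of how the lists were chosen. In IL10 knockout, 9 of 78 rose in self-filling against self-emptying loops and 0 fell, where 4.12% of all genes passed. In wild type 5 rose and 1 fell (11.5% of all genes). In TLR4 knockout 0 passed (0.0802%), with 7 at an unadjusted p under 0.05. The stasis difference itself differed between IL10 knockout and wild type for 5 of 78 genes, all larger in IL10 knockout, where 2.36% of all genes passed, and between TLR4 knockout and wild type for 0 of 78, where 0% passed and 8 list genes had an unadjusted p under 0.05.

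In IL10 knockout loops, acute phase proteins other than the members rose in 3 of 27 cases, with a list median of 0.20 log2 units against -0.02 over all genes. Lcn2, which withholds iron from bacteria, read 12.99, 12.96 and 10.87 in self-filling loops, against 7.98, 6.48 and 7.75 in self-emptying loops (4.87 ± 0.55, adjusted p = 2.32e-05), with no overlap. Lbp, which carries lipopolysaccharide to its receptor, rose by 1.36 ± 0.36 (adjusted p = 0.0359), and its co-receptor Cd14 by 0.91 ± 0.24 (adjusted p = 0.0334). For Cd14 the arrays of the loop types overlapped. With single arrays left out, the limma adjusted p reached 0.256 for Cd14 and 0.127 for Lbp. Of the cytokines 2 of 9 rose, with a median of 0.83, namely Ifng (1.88 ± 0.19) and Tnf (1.47 ± 0.33, limma adjusted p = 0.0154). Ifng was detected on 3 of 3 self-filling and 1 of 3 self-emptying arrays of IL10 knockout and in no other group. It therefore met the detection filter only through the group where it is high. Its p-value is not given, although the gene stays in the counts. Of the signalling genes 2 of 27 rose, the NF-kB inhibitor Nfkbia (1.31 ± 0.27, adjusted p = 0.0074) and the TNF receptor Tnfrsf1a (0.83 ± 0.21, adjusted p = 0.0273), with a median of 0.05. Of the partners 2 of 15 rose, Fpr2, a receptor for serum amyloid A (2.96 ± 0.45, adjusted p = 0.000727), and Tlr2 (0.69 ± 0.19, adjusted p = 0.0407), with a median of 0.22. Neutrophil markers summed to 4773 to 16768 intensity units in these self-filling loops, against 946 to 3855 in the self-emptying loops, and their part in the list counts was not tested. The count of 9 was 3 without IL10 knockout self-filling replicate 1, 4 without self-emptying replicate 2 and 0 with only these 2 groups in the model. Tnf, Nfkbia, Tnfrsf1a and Tlr2 also exceeded an adjusted p of 0.05 with some single array left out.

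In wild type loops Cd14 passed as well (0.75 ± 0.22, adjusted p = 0.0336), among 6 genes. Il1rn, the interleukin 1 receptor antagonist, read 7.87, 6.38 and 7.27 in self-filling loops, against 5.38, 5.39, 5.68 and 5.29 in self-emptying loops (1.73 ± 0.44, adjusted p = 0.0175). The alarmin Il33 (1.31 ± 0.37, adjusted p = 0.0261), the kinase Pim1 (0.41 ± 0.13, adjusted p = 0.0405) and the lysosomal protein Scarb2 (0.67 ± 0.16, adjusted p = 0.0135) rose, and the TGF-beta receptor Tgfbr1 fell by 0.53 ± 0.12 (adjusted p = 0.0104). By list these were 2 of 27 acute phase proteins, 1 of 9 cytokines, 1 of 27 signalling genes and 2 of 15 partners, with medians of -0.06, 0.19, -0.10 and -0.08 log2 units against 0.02 over all genes. The count of 6 was 2 without self-filling replicate 1, 2 without self-filling replicate 3, 3 without self-emptying replicate 3, and 0 without the 5 arrays highest in fat markers. Fat markers were at 463 to 569 intensity units in wild type self-filling loops, against 793 to 18285 in wild type self-emptying loops, and their part in these differences was not tested.

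In TLR4 knockout loops the genes with the smallest p-values in their lists included Serpina1b, an antiprotease (-1.96 ± 0.41, adjusted p = 0.0636), Tlr2 (0.86 ± 0.19, adjusted p = 0.0839), Cd14 (0.81 ± 0.24, adjusted p = 0.261) and the NF-kB regulator Nfkbiz (0.93 ± 0.30, adjusted p = 0.318), none of which passed. The medians of the 4 lists ran from -0.07 to 0.06. Without self-filling replicate 1 the count of passing genes was 1.

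**Figure D4:**
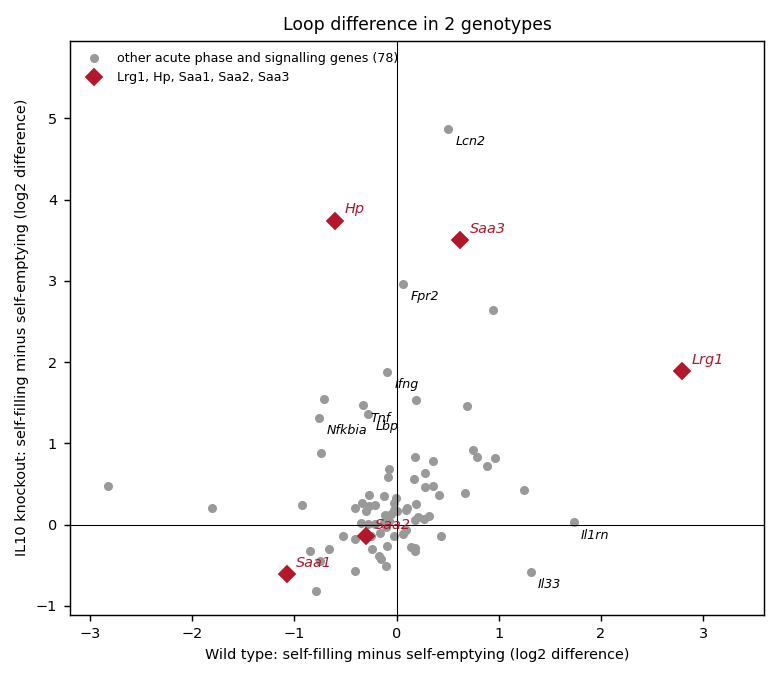
Stasis difference in IL10 knockout (vertical axis) against that in wild type (horizontal axis), both in log2 units, for 78 other genes of the acute phase lists (grey) and the 5 members (red diamonds). Lcn2, Fpr2, Hp and Saa3 stand high on the vertical axis and within about 1 unit of 0 on the horizontal, and Lrg1 stands apart at 2.79 in wild type and 1.89 in IL10 knockout.

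In drained loops, where Lrg1 rose with IL10 knockout, 9 of 78 genes of the lists rose and 3 fell against wild type, where 9.55% of all genes passed and 5.24% rose. The rises included the fucosyltransferase Fut2 (2.95 ± 0.59, adjusted p = 0.00422), which the list holds as an epithelial target of cytokine signalling, Il1b (2.61 ± 0.71, adjusted p = 0.0254), Fpr2 (1.77 ± 0.42, adjusted p = 0.011) and Tlr2 (1.39 ± 0.18, adjusted p = 9.44e-05). The inhibitor of cytokine signalling Socs1 (1.03 ± 0.24, adjusted p = 0.00945), Cd14 (1.23 ± 0.22, adjusted p = 0.00196), Il33 (1.16 ± 0.37, adjusted p = 0.0487) and Tnf (0.99 ± 0.31, adjusted p = 0.0459) rose too. For Il33 and Tnf the arrays of the 2 genotypes overlapped, and with single arrays left out the limma adjusted p reached 0.324 and 0.292. Il1b, Fpr2, Socs1, Cebpa and Cfb also exceeded 0.05 with some single array left out. Serpina1b fell by 2.63 ± 0.38 (adjusted p = 0.000285), the transcription factor Cebpa by 0.67 ± 0.20 (adjusted p = 0.0402) and complement factor B, Cfb, by 0.59 ± 0.17 (adjusted p = 0.0328). The neutrophil sum was 946 to 3855 intensity units in IL10 knockout self-emptying loops, against 320 to 426 in wild type self-emptying loops. The count of 12 was 5 without IL10 knockout self-emptying replicate 1 and 7 without wild type self-emptying replicate 2. Lrg1 passed with each array left out, at 3.97 to 4.46 log2 units.

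In TLR4 knockout drained loops 4 of 78 genes passed against wild type, a share close to the 5.64% of all genes that passed. Cfb fell by 1.14 ± 0.17 (adjusted p = 0.00036), the NF-kB cofactor Bcl3 by 1.08 ± 0.30 (adjusted p = 0.0387) and the kinase Jak1 by 0.61 ± 0.16 (adjusted p = 0.0294), while the interleukin 17 receptor Il17ra was at least 1.45-fold higher (adjusted p = 0.0136). The count was 1 without TLR4 knockout self-emptying replicate 3 and 2 without wild type self-emptying replicate 1 or 2.

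Sham cecum against sham ileum, the comparison in which Saa1 and Saa2 rose, had 14 of 78 list genes higher and 10 lower. This share is near that of all genes, of which 27.8% passed and 16.2% rose. The count of 24 was 18 to 22 with single arrays left out, and 17 to 27 over 13 other settings. Among acute phase proteins, 7 of 27 rose, including the thyroxine carrier Ttr (3.87 ± 0.43, adjusted p = 4.09e-07), Il1rn (3.82 ± 0.47, adjusted p = 1.77e-06) and the hepcidin Hamp2 (at least 8.23-fold, adjusted p = 1.05e-10), and Serpina1b fell by 4.79 ± 0.41 (adjusted p = 6.71e-09). Among partners, Apoa1, the lipoprotein that serum amyloid A displaces from high density lipoprotein, averaged 5.10 log2 units in cecum, where 2 of 3 arrays detected it, against 14.50 in ileum, near the top of the scale (adjusted p = 9.65e-18), so its fold is not given, and Tlr4 rose by 1.89 ± 0.20 (adjusted p = 2.64e-07). The suppressor of cytokine signalling Socs3 fell by 2.47 ± 0.59 (adjusted p = 0.00283), Il18 rose by 2.73 ± 0.48 (adjusted p = 0.000132) and Fut2 by 3.05 ± 0.63 (adjusted p = 0.000814). The medians of the 4 lists lay between -0.28 and 0.10 log2 units, against 0.03 over all genes. In wild type self-emptying loops against sham ileum, 0 of 78 genes passed, with 3 at an unadjusted p under 0.05.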

How the data were processed

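Total RNA of loops, cecum and ileum had been labelled with biotin and read on 25 Illumina bead arrays, and groups were taken from the sample titles, with IL10 knockout meaning arrays so labelled. The intensity values, with bead numbers and a bead standard error, and a detection p-value per probe were used as deposited by the authors, without background subtraction. No source used here names the scanner software. The authors' deposited log2 values of 17612 probes, for which the submitters' processing notes name limma, served as an alternative; they differed from the values used here by at most 0.0951. There were 0 columns of values without a sample.

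Intensities were background-corrected, given an offset of 16, quantile-normalized and put on a log2 scale (neqc, limma 3.58.1, R 4.3.3). A filter kept the 15318 probes that 3 or more arrays detected (p under 0.05), and the probe with the highest mean stood for each of 11227 genes. In limma all 25 arrays were fitted together, each group having its own mean; p-values were adjusted over all genes (Benjamini-Hochberg), and genes under 0.05 are said to pass. Each p-value printed for the 5 genes compares groups other than self-filling loops, but its estimate of spread comes from all 25 arrays, self-filling ones included. The comparisons of self-emptying loops share arrays with the stasis differences. Where no array of a group detected a probe, a fold is a lower bound, the brighter mean over the higher of the lowest detected and the probe's own signal. The fit was also run on simulated data with changes in sham cecum only. Its noise was independent, without runs or fat-rich arrays, so it cannot show how the fit handles those, and nothing is read from it. Numbers shared by samples were not taken as pairs: the median correlation of deviations was -0.009 for the same number and -0.004 for different numbers, and 7 of 21 compared pairs exceeded 0.1.

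The members and the lists were chosen with earlier results of these data known. Named list genes are up to 4 passing genes per list with the largest change, or the 2 with the smallest p where none passed, and like genes are the 5 with the highest correlation. A gene that this rule names is not reported here. Sequences and gene names come from RefSeq tables of GRCm38.p6, whose promoter table held 4 of the 5 genes, and sequences were aligned with Biopython 1.88. Alternatives covered background correction, normalization, filter, array weights, a signal covariate, array codes, groups in the model, a replicate block and single arrays left out.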

Additional observations from a re-analysis of the deposited data

Results flagged for a closer look

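The stasis difference of 5 genes of the pathway lists differed between IL10 knockout and wild type by a test of that difference in limma, out of 78 genes, where 2.36% of all genes passed. In IL10 knockout minus wild type the difference was larger by 4.36 ± 0.75 log2 units for Lcn2 (adjusted p = 0.00689) and 2.89 ± 0.61 for the receptor Fpr2 (adjusted p = 0.0194). It was larger by 2.07 ± 0.36 for Nfkbia (adjusted p = 0.00813), 1.97 ± 0.26 for Ifng and 1.80 ± 0.45 for Tnf (adjusted p = 0.0376). Ifng met the detection filter only through the IL10 knockout self-filling arrays, which this difference uses. Its p-value is therefore not given, although it is counted among the 5. The lists were chosen with earlier results of these data known. Lcn2 and Fpr2 are also among the 5 genes most like Saa3. Ifng read 7.19, 6.31 and 6.79 in IL10 knockout self-filling loops, against 5.45, 4.46 and 4.76 in IL10 knockout self-emptying loops, and was detected on 1 of 3 IL10 knockout self-emptying and 0 of 7 wild type loop arrays. The size of its difference therefore rests on values at background and is not an exact measure. In wild type Fpr2 was detected on 1 of 3 self-filling and 1 of 4 self-emptying arrays, and Tnf on 1 of 3 and 2 of 4. Without the 5 arrays highest in fat markers 0 of the 78 genes passed, and leaving out single arrays gave 3 to 7. Those 5 include wild type self-emptying replicates 2 and 3, and 3 genes passed without wild type self-filling replicate 1 or 3 or IL10 knockout self-filling replicate 1. In TLR4 knockout minus wild type 0 of 78 passed, with 8 at an unadjusted p under 0.05.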

How the results depend on the processing

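Over 13 other settings and with each array left out, Lrg1 in drained IL10 knockout loops and Saa1 and Saa2 in sham cecum kept their direction and passed (3.33 to 4.57, 3.49 to 4.52 and 1.10 to 2.76 log2 units over settings, highest adjusted p 0.00217, 0.00553 and 8.35e-05). The number of members passing in drained IL10 knockout loops was 2 with only the groups compared. The replicate block left every count of members the same. Leaving out single arrays kept 2, 0, 1 and 0 members passing in cecum, drained wild type, IL10 knockout and TLR4 knockout loops.

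List counts moved more, and the cause was not tested. Among wild type loops the fat-rich arrays are those of codes 9 to 16, so leaving out either removes the same wild type loop arrays. In drained IL10 knockout loops 12 became 7 with only the groups compared, 1 without array codes 9 to 16 and 4 without the 5 arrays highest in fat markers (5 to 15 with single arrays left out). In drained TLR4 knockout loops 4 became 7 with detection on every array of a group, 8 with the signal ratio as a covariate, 2 with only the groups compared, 2 without codes 9 to 16 and 1 without the fat-rich arrays (1 to 6). For stasis in wild type 6 became 12 with array weights, 2 with the signal ratio, and 0 without codes 9 to 16 or the fat-rich arrays (2 to 8). For stasis in IL10 knockout 9 became 0 with only the groups compared (3 to 11). For stasis in TLR4 knockout 0 became 1 without background correction and 1 with array weights (0 to 1). For the IL10 knockout minus wild type difference 5 became 10 with array weights, 3 with only the groups compared, 1 without codes 9 to 16 and 0 without the fat-rich arrays (3 to 7).

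Values that turned sign had not passed. Hp in cecum became 0.0216 without codes 9 to 16, and in drained IL10 knockout loops 0.42 without them and 0.83 without the fat-rich arrays. In drained TLR4 knockout loops Hp became -0.0339 with array weights, -0.0877 with the signal ratio and -0.43 with the replicate block. There Saa2 became -0.0068 with cyclic loess, -0.0168 with the signal ratio, -0.0773 with the replicate block and -0.0663 without codes 9 to 16, and Lrg1 became -0.061 with the replicate block. Saa3 in cecum became -0.38 with the signal ratio, and Ifng in drained wild type loops against ileum -0.008 without codes 9 to 16 or the fat-rich arrays. With single arrays left out, Saa3 in cecum ran from -0.26 to 0.63, Hp in drained wild type loops from -0.0831 to 1.29, Hp in drained IL10 knockout loops from -0.71 to 0.26, and in drained TLR4 knockout loops Lrg1 ran from -0.061 to 0.35, Hp from -0.43 to 0.53 and Saa2 from -0.10 to 0.15. Detection limits Hp and Saa2: 20 and 21 of 25 arrays detected them, so low values there are near background.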
